A study of Mus musculus with 6 samples.

Results

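The mitosis, kinetochore and spindle genes are 52 genes that act while a cell divides, out of 29616 genes listed in the deposited table. The members were set by name, matched by Ensembl identifier, and chosen because 12 proliferation genes had all been found higher with dexamethasone in these same libraries. The difference between the groups is thus what selected them, and it is given for the members as a description without a test. All 52 members were in the table and all 52 passed the filter on low counts (a 6-library mean of 10 or more), as did 17442 genes in all.

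Mitosis begins when Cdk1, bound to the A- and B-type cyclins, is switched on, after which condensin folds the chromosomes and kinetochores form on the centromeres to hold the microtubules of the spindle. The spindle assembly checkpoint holds back the anaphase-promoting complex until the kinetochores are attached, and separase then cuts the cohesin that joins the sister chromatids. Most of these genes are transcribed late in the cell cycle, so that their RNA is scarce in cells that do not divide, such as osteocytes.

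The study compared 3 control libraries with 3 from mice that received the glucocorticoid drug dexamethasone. Treatment began at 8 weeks of age and went on for 4 weeks, at a dose of 0.08 µg/g each day. The labels give the strain of all mice as C57BL/6, and the paper's methods name wild type mice as C57BL/6J. The labels call the material bone cells, and the paper describes cells sorted for Osteocalcin after the marrow had been removed from the bones. The series lists the 3 libraries of each group as biological replicates, and whether each came from 1 mouse or from several pooled mice is not given. Libraries held 72596611 to 89910728 reads counted on genes, and a count of 0 allows up to 3 reads in any of them, a limit for counting error only.

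To show the regulatory sequence that goes with these values, the promoter of each member was read from RefSeq (GRCm38.p6), from 250 bases before to 50 bases after the transcription start. The table held 48 promoters for 43 of the 52 members. Those of Ccna2, Cdc25c, Tpx2, Aurkb, Incenp, Spc24, Kif20a, Smc4 and Foxm1 were not matched. Promoters of mitotic genes are known for the cell cycle genes homology region (CHR), which the MuvB complex binds, and for CCAAT boxes, which NF-Y binds. Below stand 8 promoters, written 5′ to 3′ on the strand of the gene, in which capitals mark the CHR (TTTGAA or TTTAAA) and the CCAAT box (CCAAT) on either strand. Cdk1 and Top2a, at chr10:69352863-69353162 and chr11:99024140-99024439, both on the minus strand, are shown as abundant members with several motifs.
Cdk1: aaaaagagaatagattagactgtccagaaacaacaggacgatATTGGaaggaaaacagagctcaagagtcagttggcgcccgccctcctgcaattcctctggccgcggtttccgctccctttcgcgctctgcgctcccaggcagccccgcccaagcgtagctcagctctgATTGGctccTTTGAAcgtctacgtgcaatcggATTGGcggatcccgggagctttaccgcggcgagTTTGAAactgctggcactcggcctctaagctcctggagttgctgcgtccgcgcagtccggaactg
Top2a: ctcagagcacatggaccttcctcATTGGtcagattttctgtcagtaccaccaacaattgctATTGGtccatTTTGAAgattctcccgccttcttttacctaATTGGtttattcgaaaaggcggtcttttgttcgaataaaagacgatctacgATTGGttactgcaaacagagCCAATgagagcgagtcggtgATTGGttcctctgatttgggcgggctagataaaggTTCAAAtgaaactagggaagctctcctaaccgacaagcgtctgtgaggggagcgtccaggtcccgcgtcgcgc
Ube2c, at chr2:164769679-164769978 on the plus strand, is shown for its 6 CCAAT boxes, and Espl1, at chr15:102296043-102296342 on the plus strand, for its place among the 3 largest differences.
Ube2c: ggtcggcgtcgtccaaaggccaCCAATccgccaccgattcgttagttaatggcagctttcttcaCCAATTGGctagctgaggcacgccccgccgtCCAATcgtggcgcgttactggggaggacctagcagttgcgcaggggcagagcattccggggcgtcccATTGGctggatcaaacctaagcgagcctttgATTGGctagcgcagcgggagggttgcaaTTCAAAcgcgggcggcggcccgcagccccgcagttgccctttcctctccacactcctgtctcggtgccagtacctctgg
Espl1: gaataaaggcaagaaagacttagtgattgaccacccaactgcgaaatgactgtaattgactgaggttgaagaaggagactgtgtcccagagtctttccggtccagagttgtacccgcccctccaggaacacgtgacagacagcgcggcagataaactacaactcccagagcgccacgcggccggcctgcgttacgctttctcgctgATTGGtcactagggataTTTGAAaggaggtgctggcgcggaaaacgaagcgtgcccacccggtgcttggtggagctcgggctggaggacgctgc
Cdc20, at chr4:118437294-118437593 on the minus strand, and Bub3, at chr7:131560120-131560419 on the plus strand, are shown as the members with the smallest differences among those higher with dexamethasone.
Cdc20: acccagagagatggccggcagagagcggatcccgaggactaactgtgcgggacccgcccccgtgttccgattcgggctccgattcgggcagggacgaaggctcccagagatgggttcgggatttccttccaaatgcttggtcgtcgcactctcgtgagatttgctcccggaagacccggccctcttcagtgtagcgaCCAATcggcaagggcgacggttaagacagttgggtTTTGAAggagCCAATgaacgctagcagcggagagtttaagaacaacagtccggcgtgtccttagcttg
Bub3: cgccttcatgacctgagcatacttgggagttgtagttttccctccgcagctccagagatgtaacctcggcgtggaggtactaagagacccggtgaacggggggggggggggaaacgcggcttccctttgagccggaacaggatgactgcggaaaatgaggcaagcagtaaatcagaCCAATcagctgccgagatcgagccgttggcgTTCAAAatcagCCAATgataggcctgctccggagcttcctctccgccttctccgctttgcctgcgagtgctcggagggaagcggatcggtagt
Pttg1, at chr11:43425932-43426231 on the minus strand, and Mybl2, at chr2:163054385-163054684 on the plus strand, are the members at the low and the high end of the fold changes.
Pttg1: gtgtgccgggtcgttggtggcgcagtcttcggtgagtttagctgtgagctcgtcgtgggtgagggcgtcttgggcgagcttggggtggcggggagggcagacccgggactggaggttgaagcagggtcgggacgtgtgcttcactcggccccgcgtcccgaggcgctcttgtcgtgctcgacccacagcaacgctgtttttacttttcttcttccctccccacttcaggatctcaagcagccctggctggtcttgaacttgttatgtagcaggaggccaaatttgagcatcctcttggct
Mybl2: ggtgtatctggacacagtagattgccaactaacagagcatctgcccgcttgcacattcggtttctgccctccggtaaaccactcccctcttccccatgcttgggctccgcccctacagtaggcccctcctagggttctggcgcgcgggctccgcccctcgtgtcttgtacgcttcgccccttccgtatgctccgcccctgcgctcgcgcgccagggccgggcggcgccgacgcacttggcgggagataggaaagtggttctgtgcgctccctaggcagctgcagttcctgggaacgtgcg

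The CHR was present in 35 of the 48 member promoters (72.9%), against 27.6% of all 32851 promoters of this length and 20.3% of the 14096 promoters of tested genes. At least 1 CCAAT box was present in 37 member promoters (77.1%), against 37.4% of all promoters and 37.6% of those of tested genes. A CHR together with 2 or more CCAAT boxes was present in 20 member promoters (41.7%), against 3.13% of all promoters and 2.80% of those of tested genes. An E2F site, searched as TTTGGCGC, TTTCGCGC or TTTCCCGC on both strands, was present in 4 member promoters (8.33%), against 1.84% and 3.21%. Only these exact letters were searched, so other forms of the site were not counted. TTTAAA reads the same on both strands and was counted once per place, and in Ube2c a pair of CCAAT matches on opposite strands overlap each other. A match is a run of letters and does not show that a factor binds there. The median GC content of the member promoters was 59.7%, near the 60.0% of the promoters of tested genes.

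**Figure D1:**
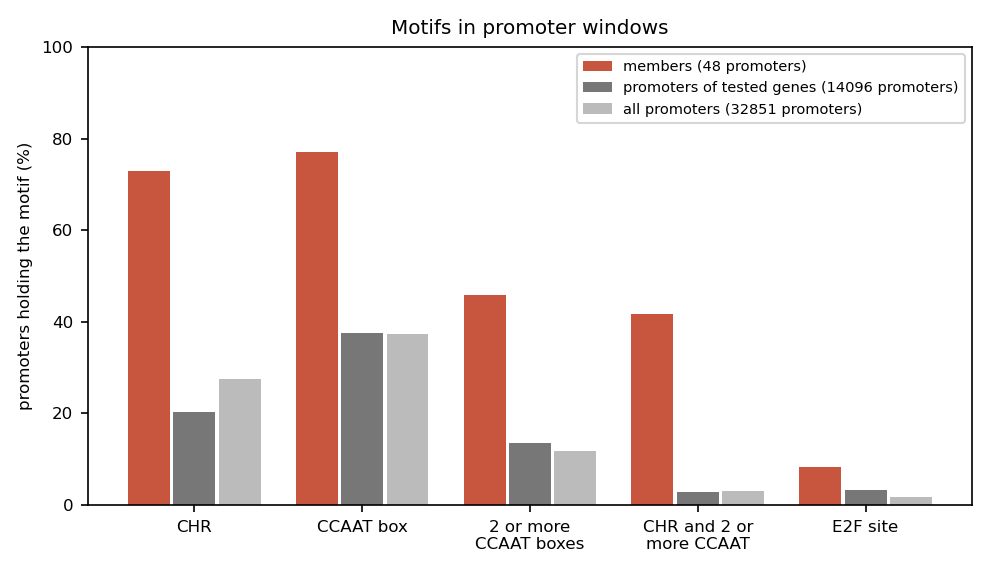
Share of promoters (%) that hold each motif on either strand, for the 48 member promoters, the 14096 promoters of tested genes and all 32851 promoters of the RefSeq table. The CHR stands at 72.9% in the members, 20.3% in the promoters of tested genes and 27.6% in all promoters.

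The fold changes were set beside the motifs as a description, with no test. The 32 members with a CHR had log2 fold changes, dexamethasone against control, from 0.69 to 2.93 with a median of 2.35, and the 11 members without it had a median of 2.38 and a range from -0.44 to 3.56. For the 18 members with a CHR and at least 2 CCAAT boxes the median was 2.16. In the windows shown above, Bub3 holds a CHR and 2 CCAAT boxes, as does Cdc20. Mybl2 and Pttg1 are among the 7 members with neither motif, and they are the members with the largest positive and the only negative difference.

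With dexamethasone, 50 of the 52 members were called higher, which required the limma adjusted p-value to be below 0.05 and the log2 fold change to reach 1, and 0 were called lower. Over all tested genes 22.3% were called, 11.7% higher and 10.6% lower, and since the members were chosen for this difference nothing is read from the contrast of these shares. The members' median log2 fold change was 2.35, with quartiles at 2.03 and 2.55 and a range from -0.44 to 3.56, whereas the median over all tested genes was 0.00071. In 41 members the log2 fold change was 2 or more, which was reached upward by 4.55% of the tested genes. The 3 control and the 3 dexamethasone values did not overlap for any of the 52 members, with dexamethasone higher in 51 and lower in 1, where 38.4% of tested genes were separated upward and 36.4% downward. The call divided the members between Cdc20, the lowest inside it at 1.32, and Bub3, the nearest outside it at 0.69.

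Summed over the members, normalized counts were 134814, 137699 and 143757 in the control libraries (replicates 1, 2 and 3, the order used throughout) and 705758, 699352 and 667520 in the dexamethasone libraries, a 4.98-fold difference of the group means. The members took 0.178% ± 0.00607 (SD, n = 3) of all reads in the control and 0.821% ± 0.0294 (SD, n = 3) in the dexamethasone libraries. In bulk RNA of this kind, more cells in division and more RNA of these genes per dividing cell cannot be told apart. Mki67 and Top2a alone held 15.7% to 16.4% of the members' reads in the control and 21.2% to 21.8% in the dexamethasone libraries.

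**Figure D2:**
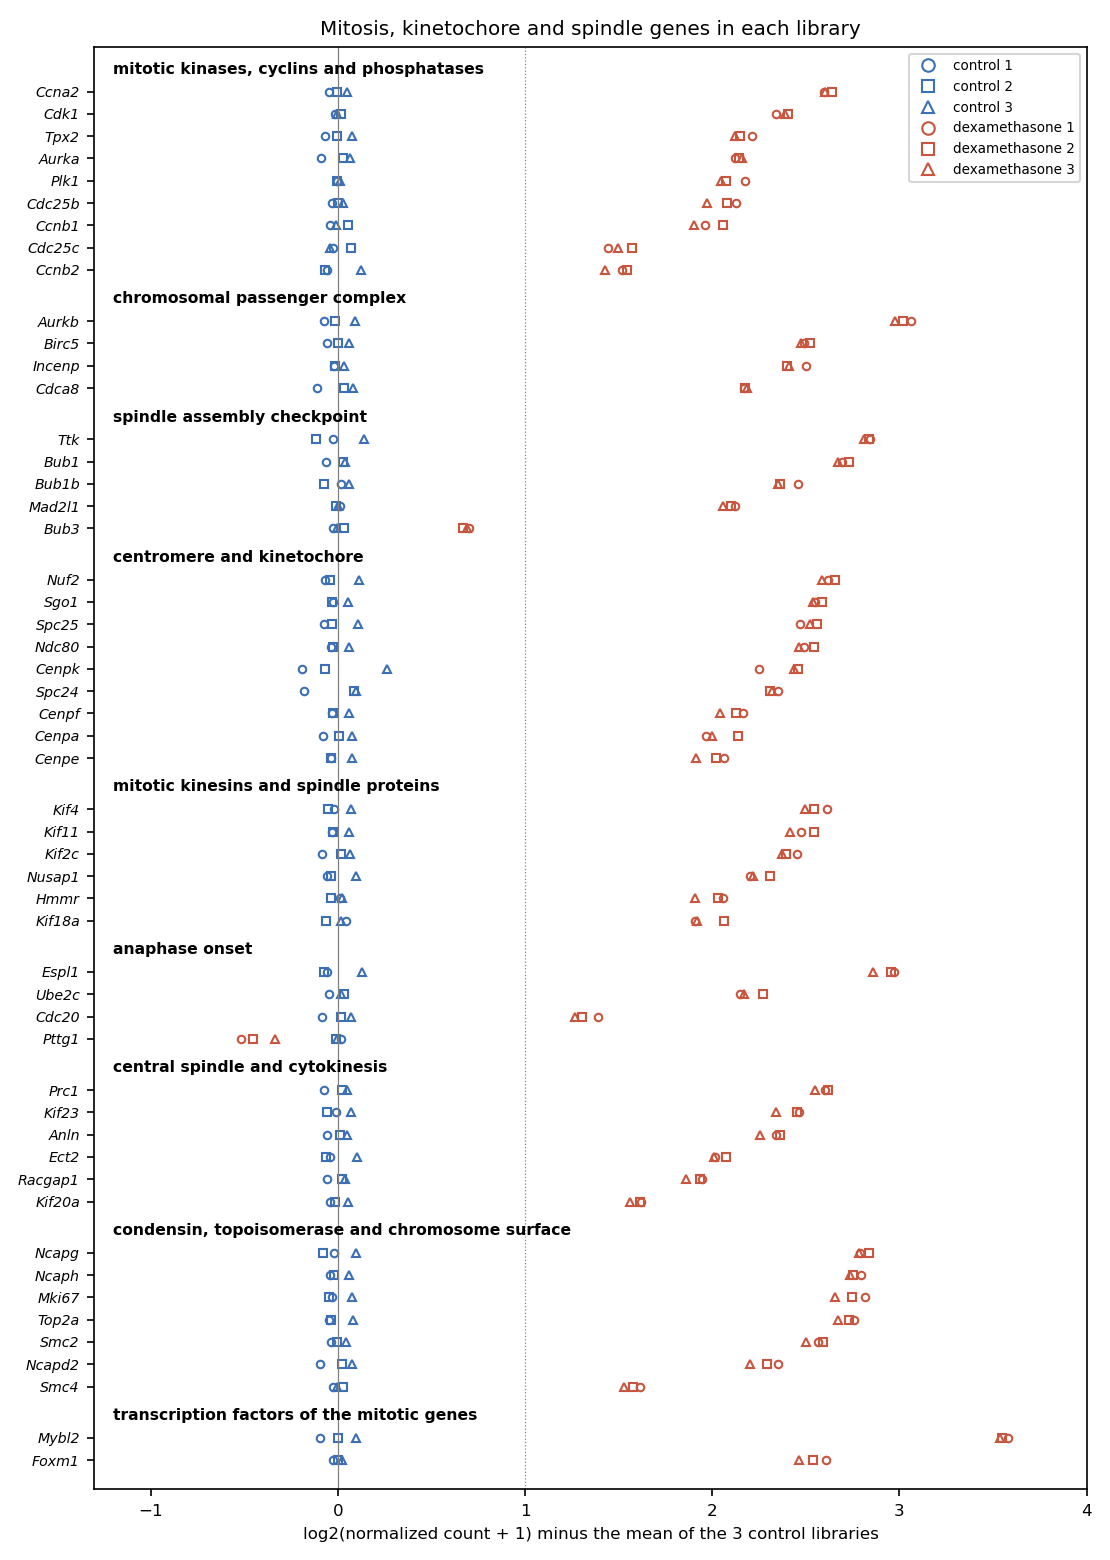
Each symbol is 1 library, placed by its log2(normalized count + 1) minus the mean of the 3 control libraries of the same gene, with the 52 members grouped by role and the dotted line at a difference of 1. The dexamethasone libraries of 50 members lie beyond that line, those of Bub3 lie near 0.69 and those of Pttg1 lie below 0.

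Among the kinases, cyclins and phosphatases that start mitosis, all 9 members were called higher, with log2 fold changes from 1.5 to 2.61 and a median of 2.10. Cdk1, the kinase that drives entry into mitosis, had 3573, 3656 and 3605 normalized counts in the control libraries and 18291, 19157 and 18902 in the dexamethasone libraries, a log2 fold change of 2.38 (standard error 0.0348). Ccna2, which encodes cyclin A2, had 2253, 2320 and 2405 in the control and 14050, 14485 and 14139 in the dexamethasone libraries, the largest difference of this role at 2.61. Tpx2, which activates Aurora A on the spindle, had 4452, 4658 and 4923 in the control and 21695, 20714 and 20311 in the dexamethasone libraries, a log2 fold change of 2.16. In each of these 3 genes the lowest dexamethasone library was more than 4 times the highest control library. The B-type cyclins were less far apart, Ccnb1 with a log2 fold change of 1.97 and Ccnb2 with 1.5. Of the phosphatases that release Cdk1 from inhibition, Cdc25b had a log2 fold change of 2.06 and Cdc25c had 1.5, and the kinases Plk1 and Aurka had 2.10 and 2.14. In the annotation, 64.8% of the 75-base positions of the Ccnb1 transcript were found in no other gene, the rest being shared with Ccnb1-ps, Gm12856 and Gm8416, so its count is uncertain.

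The chromosomal passenger complex, which corrects faulty attachments of microtubules and later guides cytokinesis, had its 4 members higher by 2.18 to 3.02 on the log2 scale. Aurkb, its kinase, had 1161, 1210 and 1306 normalized counts in the control and 10222, 9928 and 9645 in the dexamethasone libraries, an 8.10-fold ratio of means and a log2 fold change of 3.02 (standard error 0.0437). Incenp, the scaffold that holds the kinase, had 3636, 3647 and 3764 in the control and 20851, 19428 and 19536 in the dexamethasone libraries, a log2 fold change of 2.44. Birc5, which encodes survivin, had 1201, 1252 and 1303 in the control and 7043, 7194 and 6953 in the dexamethasone libraries, a log2 fold change of 2.50. The difference was thus larger for the kinase than for its partners, including Cdca8, which encodes borealin, at 2.18. As levels per kilobase of the longest annotated transcript, Aurkb stood at 629 in the control, below the 1068 of Incenp, and at 5093 with dexamethasone, where Incenp stood at 5781.

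Of the 5 spindle assembly checkpoint genes 4 were called higher, and the exception was Bub3. Mad2l1, which encodes the Mad2 protein that inhibits Cdc20, had 3992, 3941 and 3961 normalized counts in the control and 17246, 17025 and 16522 in the dexamethasone libraries, a log2 fold change of 2.09. Bub1b, which encodes BubR1, had 2201, 2067 and 2266 in the control and 11964, 11179 and 11122 in the dexamethasone libraries, a log2 fold change of 2.39. Bub3 (ENSMUSG00000066979), the adaptor that brings Bub1 and BubR1 to kinetochores, had 5201, 5414 and 5275 in the control and 8605, 8431 and 8531 in the dexamethasone libraries, a log2 fold change of 0.69 (standard error 0.0350). Its groups did not overlap, and its ratio of means of 1.61 fell short of the cut-off. Per kilobase, Bub3 at 1319 in the control was above Bub1 at 470 and Bub1b at 594, and with dexamethasone Bub3 at 2123 was below Bub1 at 3048 and Bub1b at 3114. The kinases Bub1 and Ttk, the latter also known as Mps1, had log2 fold changes of 2.7 and 2.83.

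**Figure D3:**
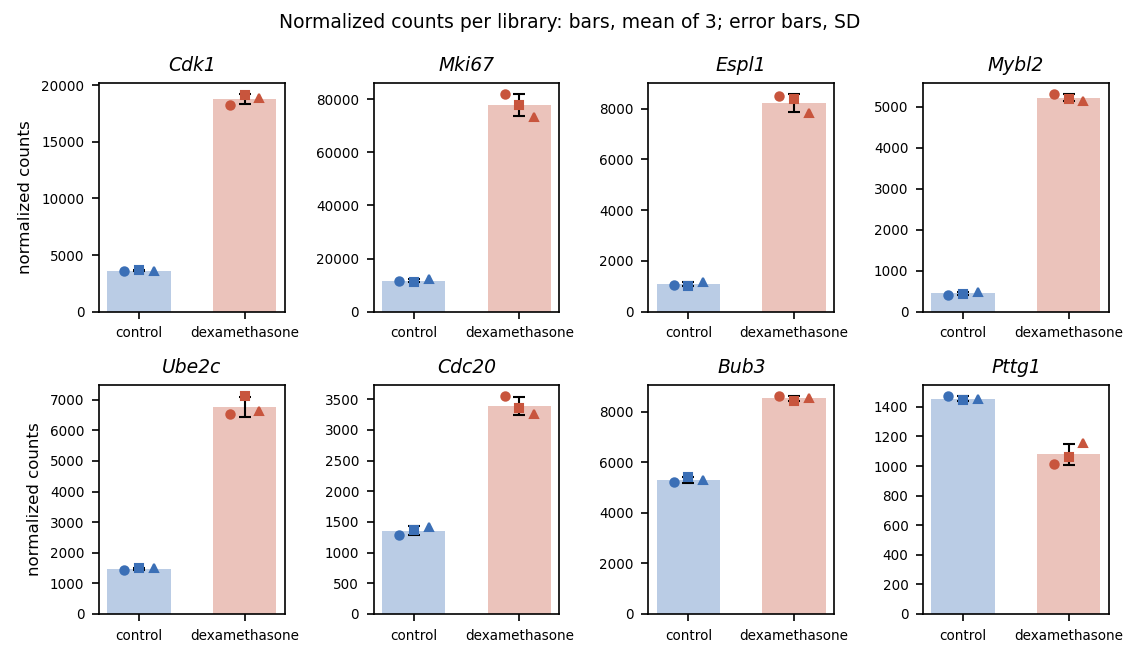
Normalized counts of 8 members, with 1 point per library, bars at the mean of 3 libraries and error bars of 1 SD. The dexamethasone libraries are above the control libraries in Cdk1, Mki67, Espl1, Mybl2, Ube2c, Cdc20 and Bub3, and below them in Pttg1, at 1016 to 1156 against 1444 to 1473.

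All 9 centromere and kinetochore members were called higher, within a narrow range of log2 fold changes from 2.0 to 2.62. Cenpf, a large protein of the outer kinetochore, had 4706, 4725 and 5008 normalized counts in the control and 21533, 20987 and 19837 in the dexamethasone libraries, a log2 fold change of 2.11. Cenpe, a kinesin that brings chromosomes to the spindle's middle, had 2672, 2672 and 2884 in the control and 11465, 11127 and 10342 in the dexamethasone libraries, a log2 fold change of 2.0. Nuf2, a subunit of the Ndc80 complex that grips microtubules, had 1352, 1375 and 1531 in the control and 8705, 8930 and 8520 in the dexamethasone libraries, a log2 fold change of 2.62. The other subunits of the Ndc80 complex lay close to it, with log2 fold changes of 2.50 for Ndc80, 2.52 for Spc25 and 2.33 for Spc24. Their levels per kilobase ran from 278 for Spc24 to 711 for Spc25 in the control and from 1392 to 4068 with dexamethasone. Cenpa, the histone variant that marks centromeres, had a log2 fold change of 2.03, and Sgo1, which protects cohesin at centromeres, had 2.56. Cenpk, a subunit of the inner kinetochore, was the member with the widest spread between replicates, with a coefficient of variation of 17.0% in the control and 7.75% in the dexamethasone libraries around a log2 fold change of 2.38.

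The 6 mitotic kinesins and spindle proteins were all called higher, by 1.96 to 2.55 on the log2 scale. Kif11, the motor that pushes the spindle poles apart, had 3993, 4006 and 4263 normalized counts in the control and 22688, 23784 and 21763 in the dexamethasone libraries, a log2 fold change of 2.48. Hmmr, which binds spindle microtubules, had 2603, 2515 and 2624 in the control and 10758, 10549 and 9701 in the dexamethasone libraries, a log2 fold change of 2.0. Nusap1, which bundles microtubules near the chromosomes, had 1702, 1727 and 1901 in the control and 8177, 8805 and 8245 in the dexamethasone libraries, a log2 fold change of 2.24. The motors Kif2c, Kif4 and Kif18a, which trim microtubules or act on chromosome arms, had log2 fold changes of 2.41, 2.55 and 1.96.

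The 4 genes of anaphase onset differed most among themselves, from -0.44 to 2.93 on the log2 scale. Espl1, which encodes separase, had 1037, 1026 and 1180 normalized counts in the control and 8482, 8371 and 7830 in the dexamethasone libraries, a 7.61-fold ratio of means and a log2 fold change of 2.93 (standard error 0.0491). Pttg1 (ENSMUSG00000020415), which encodes securin, the inhibitor that holds separase inactive, had 1473, 1444 and 1453 in the control and 1016, 1064 and 1156 in the dexamethasone libraries. All 3 dexamethasone libraries were below all 3 control libraries, and Pttg1 was the member with a negative log2 fold change, -0.44 (standard error 0.0537), short of the cut-off. Per kilobase, Pttg1 at 870 was above Espl1 at 162 in the control, and with dexamethasone Pttg1 at 644 was below Espl1 at 1236. Ube2c, the ubiquitin-conjugating enzyme of the anaphase-promoting complex, had 1423, 1506 and 1487 normalized counts in the control and 6519, 7117 and 6634 in the dexamethasone libraries, a log2 fold change of 2.20. Cdc20, the activator of that complex, had 1281, 1371 and 1424 in the control and 3552, 3356 and 3263 in the dexamethasone libraries, a log2 fold change of 1.32 (standard error 0.0478). Its difference was the smallest of the members called. Other genes lie on the opposite strand over 22.8% of the exon bases of Ube2c, and since the strand setting of the count is not given in the sources used here, reads from them cannot be set apart. The same holds for 12.5% of the exon bases of Ccna2, 11.1% of Prc1, 15.1% of Kif4, 13.4% of Ncapg, 12.7% of Cdc25c and 7.09% of Plk1.

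**Figure D4:**
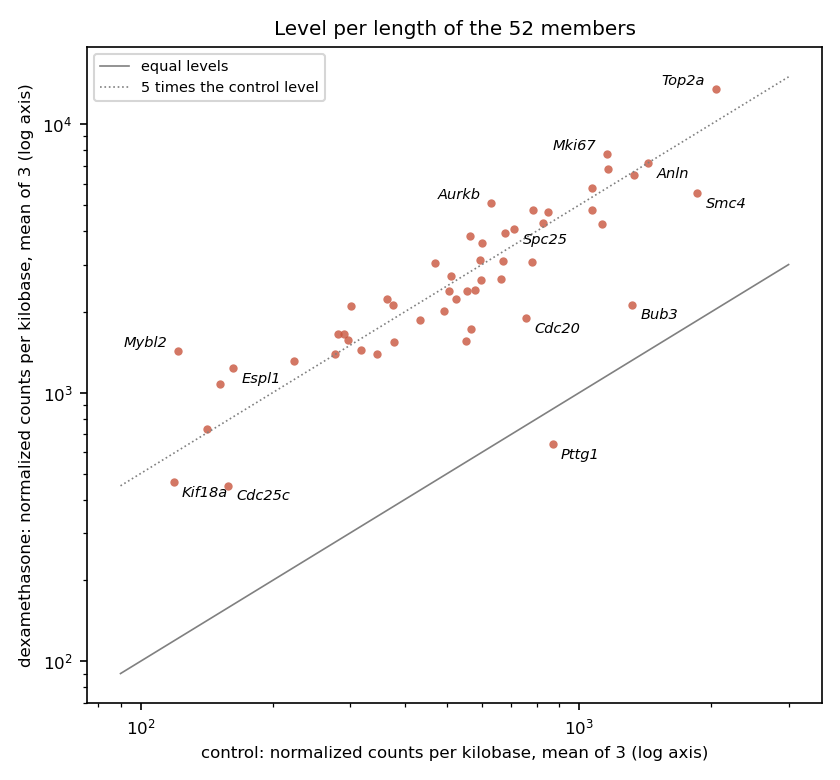
Mean normalized counts per kilobase of the longest annotated transcript in the control (x, log axis) and dexamethasone (y, log axis) libraries, with 1 point for each of the 52 members. Top2a is at the top with 2046 and 13482, and Mybl2 moves from 121 to 1429. Bub3 lies between the lines, as do Cdc20, Smc4 and other members, and Pttg1 lies under the line of equal levels.

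In the central spindle and cytokinesis group, all 6 members were called higher, by 1.6 to 2.59 on the log2 scale. Anln, which encodes anillin, the scaffold of the contractile ring, had 6346, 6655 and 6845 normalized counts in the control and 33523, 34021 and 31516 in the dexamethasone libraries, a log2 fold change of 2.32. Racgap1, a subunit of centralspindlin, had 4849, 5121 and 5186 in the control and 19473, 19294 and 18351 in the dexamethasone libraries, a log2 fold change of 1.91. Prc1, which bundles the microtubules of the central spindle, had 2075, 2224 and 2265 in the control and 13296, 13440 and 12810 in the dexamethasone libraries, a log2 fold change of 2.59. The other subunit of centralspindlin, Kif23, had a log2 fold change of 2.42, and Ect2, which centralspindlin recruits to activate RhoA, had 2.03. Kif20a, a motor of the central spindle, had the smallest difference here at 1.6, and 29.3% of its exon bases overlap genes on the opposite strand.

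The 7 genes of chromosome structure had a median log2 fold change of 2.72. Mki67 (ENSMUSG00000031004), which encodes Ki-67, the protein on the surface of mitotic chromosomes that is widely used to mark dividing cells, had 11399, 11266 and 12253 normalized counts in the control and 81857, 77977 and 73406 in the dexamethasone libraries, a log2 fold change of 2.74. Top2a, the topoisomerase that untangles sister chromatids, had 10337, 10407 and 11300 in the control and 72288, 70914 and 67973 in the dexamethasone libraries, a log2 fold change of 2.72. Smc2, a core subunit of condensin, had 6122, 6264 and 6468 in the control and 37241, 37814 and 35551 in the dexamethasone libraries, a log2 fold change of 2.55. Smc4, which pairs with Smc2 in condensin, had the smallest difference of this role, with a mean of 8020 ± 149 (SD, n = 3) in the control and 23859 ± 715 (SD, n = 3) with dexamethasone, or 1.57 on the log2 scale. Per kilobase, Smc4 at 1858 was above Smc2 at 1163 in the control, and Smc2 at 6822 was above Smc4 at 5528 with dexamethasone. The subunits found in condensin I alone, Ncapg, Ncaph and Ncapd2, had log2 fold changes of 2.80, 2.76 and 2.28.

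The transcription factors Foxm1 and Mybl2, which bind with or beside the MuvB complex on mitotic promoters, were both called higher. Foxm1 had 3105, 3164 and 3202 normalized counts in the control and 19266, 18339 and 17395 in the dexamethasone libraries, a log2 fold change of 2.54. Mybl2 (ENSMUSG00000017861), which encodes B-Myb, had 414, 443 and 473 in the control and 5314, 5193 and 5144 in the dexamethasone libraries. Its 11.8-fold ratio of means and log2 fold change of 3.56 (standard error 0.0514) were the largest of the 52 members. In the annotation, 78.1% of the 75-base positions of Mybl2 were found in no other gene, the rest being shared with Gm3320 and AC151978.1.

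Replicates lay close together compared with these differences. The coefficient of variation between replicates had a median over the members of 4.35% in the control and 3.30% in the dexamethasone libraries, where the 9176 genes with at least the mean of the lowest member had 2.75% and 3.46%. Control replicate 3 was the highest of its group for 43 of the 52 members, and dexamethasone replicate 3 was the lowest of its group for 37. Dexamethasone replicate 3 held the fewest reads of all 6 libraries, 72596611, and control replicate 3 the most of its group, 88354925. The part of depth in this order was not tested.

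Genes of the same processes outside the 52 members were counted from lists set by function. The lists were chosen with earlier results of these data known, so their counts are a description without a test. Of 126 such genes 71 were called higher and 0 lower, with a median log2 fold change of 1.28. Among all tested genes, 11.7% were called higher and 10.6% lower. The lists differed. Of 31 further centromere and kinetochore genes 25 were called higher (median 2.06), from Cenpp, at 0.61 on the log2 scale (limma adjusted p = 4.1e-07) and not called, to Kntc1, a subunit of the RZZ complex, at 3.16 (limma adjusted p = 7.64e-27). The members of this list with the highest counts, Zwint and Hjurp, the chaperone that places Cenpa, rose by 1.35 and 1.89 on the log2 scale. Of 28 further kinesin, spindle and centrosome genes 24 were called higher (median 1.96), led by Kif15, a motor that acts beside Kif11, at 2.82. In that list Numa1 and Ckap5, which organise spindle poles and build microtubules, had log2 fold changes of 0.29 and 0.68, short of the cut-off. Of 16 further kinases, phosphatases and regulators 10 were called higher (median 1.5), with Melk at 2.90 and the abundant Nek7 at 0.59. Ensa, an inhibitor of the phosphatase PP2A, stood at 0.01 on the log2 scale (limma adjusted p = 0.752), which was -0.10 at equal library totals.

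The anaphase-promoting complex is the ligase that Cdc20 and Ube2c, themselves chosen members, serve. Of 18 genes of the complex and its regulators 1 was called higher and 0 lower, beside the 11.7% of all tested genes called higher, with a median log2 fold change of 0.28, 11 values above 0 and 7 below. That gene was Fbxo5, which encodes the inhibitor Emi1, with 1051 ± 24.7 (SD, n = 3) normalized counts in the control and 6262 ± 179 (SD, n = 3) in the dexamethasone libraries, a difference of 2.57 on the log2 scale (limma adjusted p = 2.95e-25). The subunits with the highest counts, Anapc1 and Anapc5, had log2 fold changes of 0.39 and 0.43, and Anapc10 had the lowest at -0.38. Cohesin gave 4 of 14 genes called higher (median 0.61), among them Esco2 and Cdca5, which secure cohesion after replication, at 3.11 and 2.84, and the ring subunits Smc1a and Rad21 at 1.24 and 1.08. The value of Rad21 was 0.97 at equal library totals and 0.92 with quantile normalization, under 1 in both. The cohesin loaders Nipbl and Mau2 had log2 fold changes of 0.07 and -0.12, the former -0.04 at equal library totals. Among 6 further condensation genes 3 were called higher, Ncapg2 of condensin II at 3.0, whereas Top2b, the topoisomerase that non-dividing cells also use, had 0.08, which was -0.03 at equal library totals. Among 13 further cytokinesis genes 4 were called higher (median 0.22), from Sept2 at -0.56, not called, to Cep55, which acts at the final cut between daughter cells, at 2.65. Of the most abundant genes of that list, the septin Sept9 was at 1.26 and the kinase Rock2 at 0.29.

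**Figure D5:**
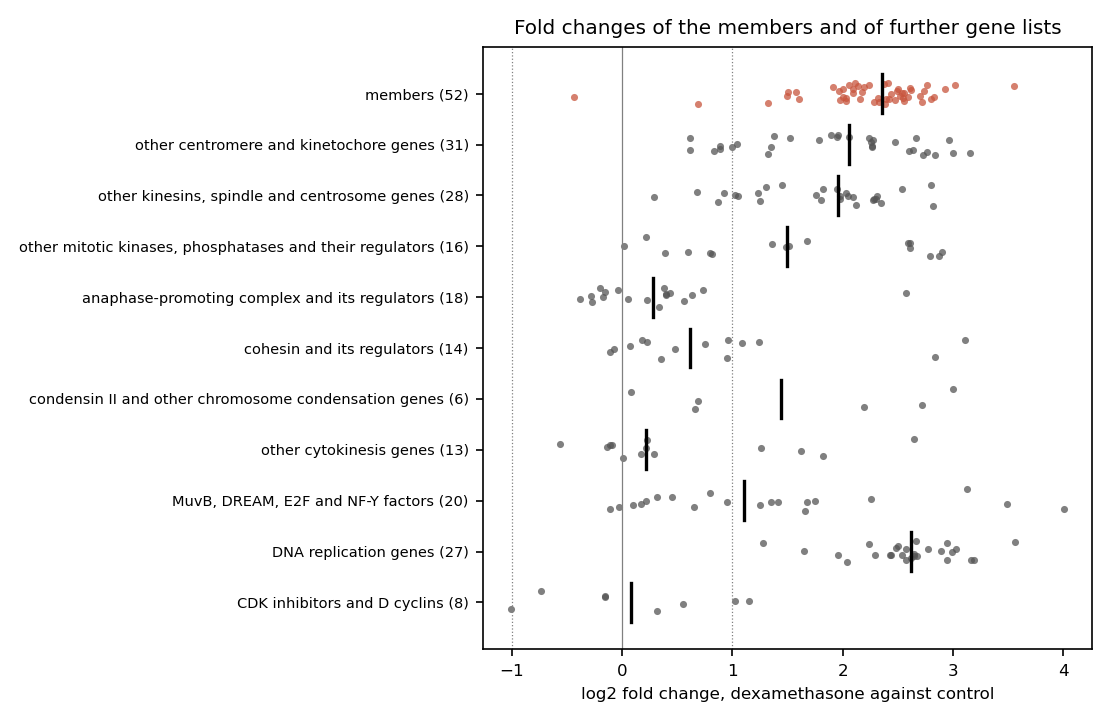
Log2 fold change, dexamethasone against control, of each tested gene (points) and the median (black bars) of the 52 members and 10 further lists, with the number of genes in brackets and dotted lines at -1 and 1. The medians run from 2.62 for the DNA replication genes to 0.08 for the CDK inhibitors and D cyclins, the last of which is -0.04 at equal library totals.

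The counts below stand beside 11.7% of all tested genes called higher and 10.6% called lower. Regulators of the mitotic promoters outside the members gave 10 of 20 genes called higher and 0 lower, with a median log2 fold change of 1.10. E2f8, a repressor of the E2F family, had the largest value, with 392 ± 21.2 (SD, n = 3) normalized counts in the control and 6334 ± 213 (SD, n = 3) in the dexamethasone libraries, a difference of 4.01 on the log2 scale (limma adjusted p = 3.38e-27). Tfdp1, a partner with which most E2F proteins bind DNA, rose by 1.25. Rbbp4, a subunit of MuvB, had 0.79 and Rbl2, the p130 protein of the DREAM repressor, had -0.12, both short of the cut-off. Lin54 was not analysed here. Among the genes of DNA replication, the step before mitosis, 27 of 27 were called higher with a median of 2.62, and the smallest value was 1.28, for Gins4. The replication genes with the highest counts were Mcm6, of the replicative helicase, at 2.66 and Rrm1, of ribonucleotide reductase, at 1.96. Of 8 CDK inhibitors, D cyclins and the retinoblastoma gene 2 were called higher, Cdkn2c at 1.03 and Cdkn2d at 1.15, and 1 lower. That gene was Cdkn1b, which encodes the inhibitor p27, with 12177 ± 108 (SD, n = 3) normalized counts in the control and 6049 ± 122 (SD, n = 3) in the dexamethasone libraries, a difference of -1.01 on the log2 scale (limma adjusted p = 1.15e-18), and -0.998 without dexamethasone replicate 3. Cdkn2c lay close to the cut-off, and its own value was not followed under the other scalings and filters. The D cyclins with the highest counts, Ccnd2 and Ccnd1, had log2 fold changes of -0.16 and 0.55, neither called. Cdkn1c, Cdkn2a and Cdkn2b were not analysed here.

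Markers of cell types that divide in bone were set beside these values, and their part in the members' difference was not tested. Calls among them stand beside 11.7% of all tested genes called higher and 10.6% lower. The 10 markers of blood cells summed to 137 to 195 normalized counts in the control and 801 to 871 in the dexamethasone libraries. In the dexamethasone libraries Itgb2 and Cd53, both called higher, made up most of the sum. Of these 10, 5 were under 10 in both groups, among them Ptprc, the common leukocyte antigen, at 1.76 to 2.94 and 2.86 to 5.81. Laptm5 and Coro1a of the same list were called lower. The 8 erythroid markers in the table summed to 4080 to 4330 in the control and 19424 to 19972 in the dexamethasone libraries, nearly all from Tfrc, the transferrin receptor, which other dividing cells also carry, while the globin gene Hba-a1 was at 0.979 or less and 1.91 or less. For the B lineage the sums were 3528 to 3739 and 2499 to 2664, nearly all from Ebf1. Myeloid markers summed to 876 to 908 and 979 to 1151, and none of the 5 tested was called. The most abundant of them, S100a9 and S100a8, had log2 fold changes of 0.09 and 0.87, the former -0.019 at equal library totals. The endothelial sums were 387 to 425 and 486 to 518, mostly from Kdr, at a log2 fold change of 0.25 and not called. Of the 5 endothelial markers tested only Esam was called, higher at 1.20, Pecam1 was at 0.74, and Cdh5 stood at 0 to 1.84 and 1.16 to 2.18 normalized counts. The chondrocyte markers summed to 5955 to 6413 and 22116 to 24973, almost all from Sox9 and Col2a1, which were called higher. Comp of that list was called lower, at a log2 fold change of -1.23, and Acan, Matn1 and Col9a1 were at or near 0 in both groups.

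The labelled bone cells were checked against their own markers in the same way, again beside the 11.7% of tested genes called higher and 10.6% lower. Of 8 osteoblast markers 7 were called lower, among them Col1a1, at 926460 to 991151 normalized counts in the control and 247337 to 281338 in the dexamethasone libraries. Bglap, a gene of Osteocalcin, by which the cells are said to have been sorted, was low in all libraries, at 98.2 to 122 and 9.54 to 15.1. Bglap2, also a gene of Osteocalcin, was among the 7 called lower, and reads shared between these genes were not checked. Spp1 of the same list was called higher, at a log2 fold change of 5.25. Among the 3 osteocyte markers tested Dmp1 was called higher, at 7.16, while Phex at 0.60 and Mepe at -0.77 were not called. Of 6 skeletal stromal markers Lepr and Pdgfra were called higher and 0 lower, with the most abundant, Ctsk and Cxcl12, at -0.65 and 0.54 and not called. Of 6 smooth muscle markers Acta2, at a log2 fold change of -3.54, and Mcam, at -1.08, were called lower. The value of Mcam was -0.97 with quantile normalization and -0.94 without dexamethasone replicate 2, short of the cut-off.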

How the data were processed

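RNA was sequenced from 3 control and 3 dexamethasone samples after library construction with a stranded mRNA kit. Per the submitters' processing notes, the authors used bcl2fastq, STAR 2.7.10a, DESeq2 1.36.0 and the GRCm39 build, and the paper states that STAR counted the reads per gene. The annotation release and the strand setting were not given in the sources used here. The deposited values are a signal that the authors made by dividing counts by a size factor per library. Whole reads were recovered for 100% of values (tolerance 0.01 read), at 72596611 to 89910728 reads per library.

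Normalized counts were log2-transformed after adding 1, which understates the fold change of genes with low counts, and compared with limma 3.58.1 (R 4.3.3, mean-variance trend, no block) over the 17442 of 29616 genes whose mean reached 10. Benjamini-Hochberg adjustment covered all tested genes. A call required the adjusted p-value to be below 0.05 and the fold change to reach 1 on the log2 scale upward or downward, the cut-offs of the study. edgeR 4.0.16 (quasi-likelihood) and DESeq2 1.42.0 were run on the recovered reads as alternatives, beside other pseudocounts, filters and scalings. On simulated data for 17253 genes, each of limma, edgeR and DESeq2 recovered 200 of 200 changed genes and called 2, 3 and 0 unchanged ones. Recovery of genes with a fold change near the cut-off, or with low counts, was not tested separately. Replicate libraries differed by more than sampling noise (chi-square per degree of freedom 3.27 to 26.1).

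Symbols, transcript lengths, unique positions and overlaps came from GENCODE M21 (GRCm38), and the longest annotated transcript may not be the main isoform. The members and all gene lists were chosen with earlier results of these data known. Members given with the values of every library were the up to 3 of each role with the highest mean, the 3 largest and 3 smallest fold changes and every member not called. Genes named from the other lists were taken from the 2 with the highest mean and those with the largest and smallest fold change, and from the marker lists from the 2 with the highest mean. Smc4, Smc1a, Cdca5, Cdkn2c, the other markers named and the members given by fold change alone were added after their values were seen. Some genes of these lists are not reported here.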

Additional observations from a re-analysis of the deposited data

How the results depend on the processing

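The 50 members called higher numbered 50 under every alternative that kept the cut-off on the fold change, including each library left out in turn (50 to 50). With the adjusted p-value alone 51 were higher and 1, Pttg1, lower. The other filters, the fit without a trend and the replicate block cannot change a member's fold change, only its call. Of 884 values of single members under the other 17 alternatives, 0 changed sign and 0 lost or gained a call. Their median log2 fold change of 2.35 was 2.24 at equal library totals, where the median of all genes shifted to -0.11, and 2.21 after quantile normalization, and it ran from 2.29 (without control replicate 1) to 2.38 with libraries left out. Over all genes 3894 calls became 2170 (1350 higher, 820 lower) with a mean of at least 100, which tests fewer genes, and 12645 (6497 higher, 6148 lower) with the adjusted p-value alone, and ran from 3878 to 3910 with libraries left out. edgeR called 3944 genes and DESeq2 3870. Calls higher made up 52.3% of all, 45.1% at equal totals and 62.2% with a mean of at least 100. The 71 further mitosis genes called, of 126, became 69 to 72 with libraries left out. With the adjusted p-value alone they became 120 (109 higher, 11 lower), where 12645 of all 17442 tested genes passed. Of 55 other genes, those named by highest mean or by largest or smallest fold change, 10 values changed sign. Genes outside the members that were added after their values were seen were not followed one by one. Ensa went from 0.01 to -0.10 at equal totals, -0.17 by quantile normalization and -0.0129 by edgeR, and with libraries left out it ran from -0.0034 (without control replicate 1) to 0.0341, also below 0 at -0.00035 without dexamethasone replicate 1. Nipbl went from 0.07 to -0.0434 and -0.15 and Top2b from 0.08 to -0.0306 and -0.14, at equal totals and by quantile normalization, and S100a9 from 0.09 to -0.019 at equal totals. A further 5 values lost a call, for Rad21, Mcam and Cdkn1b. Same-numbered libraries of the groups did not deviate together (correlations -0.0999, -0.105 and -0.0199), so the replicate block is only an alternative, with 3897 calls (2035 higher, 1862 lower), 50 members and 71 further mitosis genes, and it moved no fold change. Depth was not limiting for any member, all of which had over 200 reads in each library. Except where given, the cause of a change was not tested.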
